A study of Mus musculus with 4 samples.

Results

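The 10 genes examined here encode the gonadotropin receptors and the core of the cAMP pathway in granulosa cells (GCs) of the mouse, which nurse the oocyte and make oestradiol. They were taken by name, each as the row of the table whose Ensembl identifier carries the symbol, and they are 10 of the 55385 genes listed. Fshr and Lhcgr are the receptors, Gnas encodes the stimulatory G protein, Prkaca, Prkar1a and Prkar2b encode subunits of protein kinase A (PKA), Pde4d and Pde8a encode phosphodiesterases, and Creb1 and Crem encode transcription factors. Each symbol matched 1 identifier.

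Bulk RNA sequencing was done on GCs from preantral follicles of female Kunming mice, 12 to 14 days old, that had been grown singly in vitro for 6 days. In the 2 NT4 libraries the medium held neurotrophin-4 (NT-4), a growth factor of the nerve growth factor family, and in the 2 Control libraries it did not. The libraries of each group are numbered 1 and 2, and the values of a group are given in that order. The culture medium of both groups contained FSH, fetuin, insulin, transferrin and bovine albumin. The GCs were, per the methods, the cumulus cells left once oocytes had been removed, and the labels give neither the number of follicles per library nor the NT-4 concentration, for which the study states that it settled on 1 dose after a dose series.

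FSH and LH bind receptors that couple to the stimulatory G protein, whose alpha subunit activates adenylyl cyclases and raises cAMP. cAMP binds the regulatory subunits of PKA and frees the catalytic subunits, which phosphorylate CREB family factors at target genes, while phosphodiesterases degrade cAMP. In GCs this pathway drives growth, oestradiol synthesis and, late in follicle growth, the gain of the LH receptor, which theca cells also carry. In bulk RNA, fewer cells of a type and less RNA per cell cannot be told apart.

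The libraries held 49520092 to 78704020 counts. Each of the 12 granulosa markers examined had a mean of at least 1 CPM, that is, in counts-per-million units with library totals scaled by TMM factors. Their summed level was 13040 and 15250 CPM in the Control libraries and 11780 and 16540 CPM in the NT4 libraries. Markers of theca and stroma were also present, at a summed 725 and 739 CPM in Control and 1048 and 901 CPM in NT4. Of these 9 markers, 4 (Tcf21, Acta2, Dcn and Lum) were higher in NT4 at an unadjusted p under 0.05 in edgeR's quasi-likelihood test. Among all genes 1.05% were, and 0 of the 9 passed at an adjusted p. The endothelial marker Tek was also higher in NT4 (unadjusted p = 0.0366 in the same test). Its levels were low, at 0.159 and 0.190 CPM in Control and 0.947 and 0.441 CPM in NT4. The endothelial marker Kdr was lower in both NT4 libraries, at 0.497 and 0 CPM against 1.10 and 0.597 CPM in Control. Pecam1 and Cdh5, also endothelial, overlapped between groups, with log2 fold changes of −0.53 and 0.19. Oocyte markers summed to 67.9 to 98.6 CPM, endothelial markers to 18.6 to 27.5 CPM, erythroid markers to 2.70 to 3.95 CPM, macrophage markers to 0.976 to 1.73 CPM and surface epithelial markers to at most 0.519 CPM, with Krt19 at 0 in all 4 libraries.

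The question was how NT-4 in the medium changed the transcripts of the FSH and LH response. Creb1 was the member with the smallest p, at 1.93 times the Control level in NT4. The fitted log2 fold changes of Fshr, Gnas and the PKA subunits lay between −0.05 and 0.07. These are not limits, as the Fshr interval was −0.55 to 0.66. With a library left out, Fshr ranged from −0.27 to 0.31, Prkar2b from −0.33 to 0.18 and Prkaca from −0.094 to 0.23. Gnas and Prkar1a then stayed at 0.03 to 0.10 and at 0.05 to 0.09. All 10 members passed the filter on low counts. By edgeR's quasi-likelihood test, 0 of 10 had an adjusted p under 0.05, as did 0.0% of the 19259 genes tested. At an unadjusted p under 0.05 there was 1 member, Creb1, against 1.99% of all genes. The DESeq2 Wald test and edgeR's exact test each called 1 member after adjustment, also Creb1, where they called 0.313% and 0.306% of all genes with an adjusted p. limma voom called 0 members and 0.0% of all genes. The other 9 members had an adjusted p of 0.9999 in edgeR's quasi-likelihood test. The criterion in the methods, an unadjusted p under 0.05 together with a fold of more than 2 or less than 0.5, was met by 0 members and by 1.08% of all genes. The median log2 fold change of NT4 over Control was 0.063 over the members and 0.0045 over all genes tested. The median size of the change, regardless of direction, was 0.08 against 0.15.

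In 4 members, Lhcgr, Prkar1a, Pde4d and Creb1, both NT4 libraries lay above both Control libraries, and in 0 members both lay below. Among all genes tested, 26.0% did not overlap between groups, 13.4% being higher and 12.7% lower in NT4. With 2 libraries against 2, only 3 splits exist and the smallest p of an exact permutation test is 0.333, so the p-values given here come from models across all genes, edgeR's unless another tool is named. They measure the spread between these libraries, which may be partly technical.

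**Figure D1:**
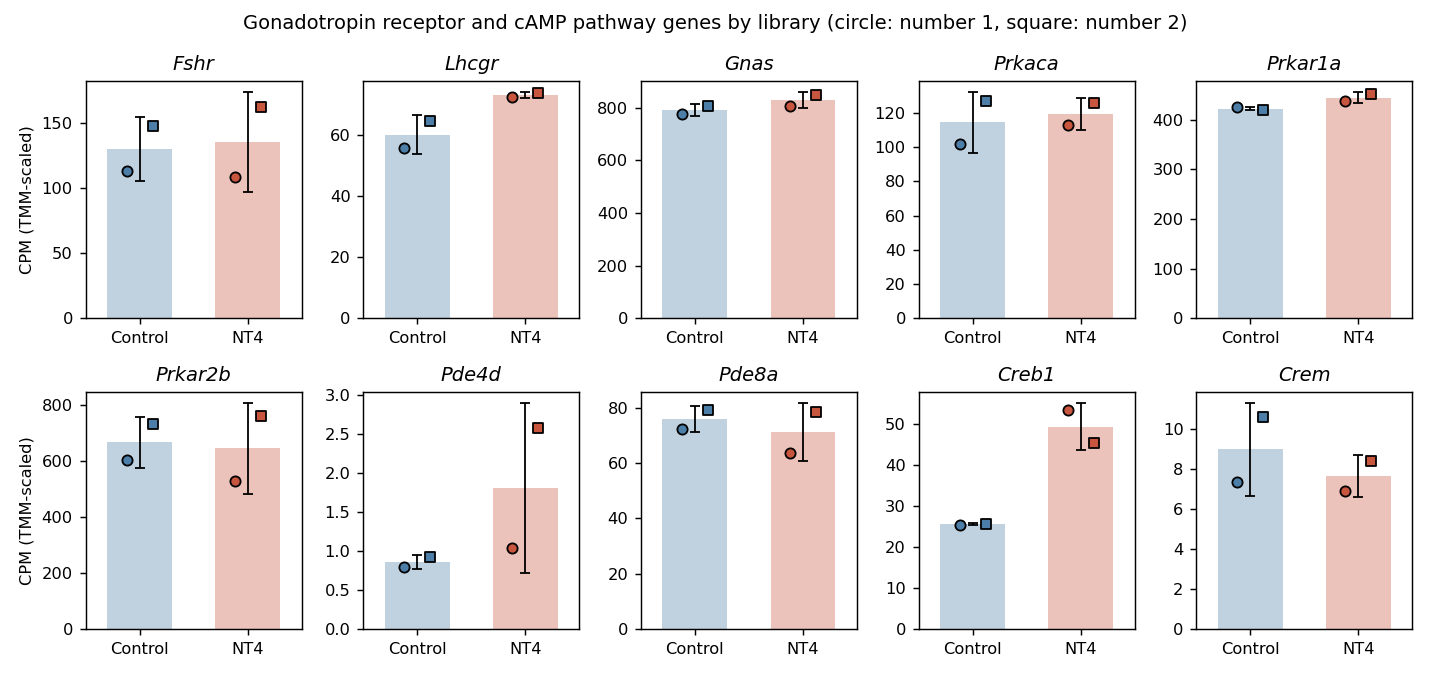
Level of each of the 10 genes in TMM-scaled CPM in Control and NT4 libraries. Points are libraries, bars are group means and error bars are SD (n = 2). Creb1 is at 25.4 and 25.7 CPM in Control and 53.4 and 45.2 CPM in NT4, while the groups overlap for Fshr, Gnas, Prkaca, Prkar2b, Pde8a and Crem.

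The gonadotropin receptors were examined first. Fshr (ENSMUSG00000032937, GRCm38 chr17:88984952-89200675, minus strand) encodes the FSH receptor of GCs. Its level was 112.5 and 147.0 CPM in the Control libraries and 108.0 and 162.0 CPM in the NT4 libraries. The highest and the lowest library were both NT4 libraries, so the groups overlapped. Averaged by group, Fshr was at 135.0 ± 38.2 CPM with NT-4 and at 129.8 ± 24.4 CPM without it (SD, n = 2). The log2 fold change was 0.06 with a standard error (SE) of 0.24 and a 95% interval of −0.55 to 0.66, which spans folds of 0.683 to 1.58.

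Lhcgr (ENSMUSG00000024107, chr17:88716481-88791990, minus strand) encodes the LH receptor. It was at 55.6 and 64.7 CPM in the Control libraries and 72.5 and 73.8 CPM in the NT4 libraries. The NT4 libraries lay close together and above both Control libraries, at 73.2 ± 0.863 CPM against 60.2 ± 6.44 CPM (SD, n = 2). The log2 fold change was 0.28 (SE 0.13), with an interval of −0.06 to 0.62 and an unadjusted p of 0.0856. With a library left out it was 0.17 to 0.40, the lowest without Control 1 and the highest without Control 2. Theca cells carry this receptor too, and the summed theca and stroma markers were likewise higher in both NT4 libraries. Cyp17a1, the theca androgen-synthesis enzyme, was at 72.2 and 133.6 CPM in the Control libraries and 133.9 and 173.3 CPM in the NT4 libraries, and Insl3, a theca hormone, was at 5.54 and 14.3 CPM and at 9.58 and 16.5 CPM. Insl3 shares 404 exon bases on the same strand with Jak3, which had 642 to 1165 counts, so its level is uncertain. Lhcgr and Cyp17a1 thus had the same order of libraries. None of the other theca and stroma markers had that order, nor did their sum, at 1048 CPM in NT4 1 and 901 CPM in NT4 2. The part of theca and stroma RNA in the Lhcgr difference was not tested.

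The start regions of both receptor genes are shown because these genes stand at the head of the pathway and differed in how their libraries were ordered. The windows run from 250 bases before to 50 bases after the annotated start and are RefSeq sequence on GRCm38.p6, minus strand, at chr17:89200626-89200925 for Fshr and chr17:88791965-88792264 for Lhcgr. They were searched on both strands for the cAMP response element (CRE) TGACGTCA, its core TGACG, the E-box CACGTG and the GC box GGGCGG, and capitals mark the matches.

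Fshr: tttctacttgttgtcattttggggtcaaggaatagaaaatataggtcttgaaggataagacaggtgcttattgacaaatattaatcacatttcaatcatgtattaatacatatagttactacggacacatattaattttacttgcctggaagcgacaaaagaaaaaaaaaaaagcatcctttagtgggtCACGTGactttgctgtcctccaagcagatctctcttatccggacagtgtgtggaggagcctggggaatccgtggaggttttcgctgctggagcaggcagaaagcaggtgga
Lhcgr: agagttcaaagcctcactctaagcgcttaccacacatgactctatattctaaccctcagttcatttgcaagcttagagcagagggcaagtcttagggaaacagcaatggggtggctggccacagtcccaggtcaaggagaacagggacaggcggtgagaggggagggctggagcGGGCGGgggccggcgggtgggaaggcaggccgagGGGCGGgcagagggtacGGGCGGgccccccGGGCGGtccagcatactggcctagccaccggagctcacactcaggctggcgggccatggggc

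The Fshr window held 1 E-box, whose first base lay 61 bases before the start, and no GC box. The Lhcgr window held 4 GC boxes and no E-box. Neither held a CRE or its core. Of 32851 promoter windows of this length, 7.15% held the E-box, 35.7% the GC box, 1.79% the CRE and 20.8% its core, which is also part of the CRE.

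Compared per length, as counts per kilobase of the union of annotated exons scaled to a fixed sum per library, Fshr exceeded Lhcgr in every library. The Fshr level was 6.55 times that of Lhcgr in Control 1, 7.36 times in Control 2, 4.82 times in NT4 1 and 7.11 times in NT4 2. With the mean length of annotated transcripts in place of the exon union, the ratio was 1.97 to 3.01, so its size depends on the length used. NT4 1 had the lowest ratio by both lengths.

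Gnas (ENSMUSG00000027523, chr2:174284320-174346744, plus strand) encodes the alpha subunit of the stimulatory G protein. It was the most abundant member in CPM and nearly level across libraries, at 776 and 809 CPM in the Control libraries and 808 and 850 CPM in the NT4 libraries. The fitted log2 fold change was 0.07 (SE 0.10, interval −0.20 to 0.33). The locus also gives imprinted and antisense transcripts. The antisense gene Nespas shares 988 exon bases with Gnas and Gm20721 shares 1469, and, as the use of strand in counting is not stated, their reads cannot be told apart from those of Gnas. These genes carried 26 to 66 and 5 to 9 counts per library, against 38932 to 65554 for Gnas.

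The PKA subunits followed. Prkaca (ENSMUSG00000005469, chr8:83972993-83996443, plus strand) encodes the catalytic subunit alpha. It was at 102 and 127 CPM in the Control libraries and 113 and 126 CPM in the NT4 libraries, with both extremes in Control. The log2 fold change was 0.06 (SE 0.15, interval −0.33 to 0.45).

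Prkar1a (ENSMUSG00000020612, chr11:109649405-109669656, plus strand) encodes the type I regulatory subunit alpha. It had the smallest range of CPM relative to its level, at 426 and 420 CPM in the Control libraries and 437 and 452 CPM in the NT4 libraries. The NT4 libraries lay above the Control libraries by a small margin, with a log2 fold change of 0.07 (SE 0.11, interval −0.19 to 0.34). Prkar2b (ENSMUSG00000002997, chr12:31958476-32061296, minus strand) encodes the type II regulatory subunit beta, known in GCs as a product of FSH action. It was at 602 and 730 CPM in the Control libraries and 529 and 759 CPM in the NT4 libraries. As with Fshr, the highest and the lowest libraries were those of NT4. The log2 fold change, −0.05, had an SE of 0.21 and an interval of −0.57 to 0.47.

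Per length of the exon union, Prkar2b made up 55.5% to 64.4% of the 4 regulatory subunit genes and Prkar1a 31.3% to 38.8%. Prkar2a and Prkar1b took at most 3.84% and 1.87%, or at most 8.39% and 3.39% by mean transcript length. By mean transcript length the shares of Prkar1a and Prkar2b overlapped, at 43.2% to 50.2% and 38.0% to 47.0%. Prkaca took 76.0% to 81.1% of the catalytic pair it forms with Prkacb, and 57.2% to 64.4% by transcript length. The summed regulatory level was 4.47 to 5.17 times the summed catalytic level by exon union and 4.96 to 5.52 times by transcript length, with NT4 1 the lowest library by both.

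A Prkar1a start region is printed because, of the 9 members with a window, only Prkar1a had a full CRE in it. Of the 19 windows, 2 held it, both of Prkar1a and overlapping each other. Crem had no window and was not searched. The window shown is RefSeq sequence on GRCm38.p6, plus strand, chr11:109650699-109650998, with the same motifs in capitals.

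Prkar1a: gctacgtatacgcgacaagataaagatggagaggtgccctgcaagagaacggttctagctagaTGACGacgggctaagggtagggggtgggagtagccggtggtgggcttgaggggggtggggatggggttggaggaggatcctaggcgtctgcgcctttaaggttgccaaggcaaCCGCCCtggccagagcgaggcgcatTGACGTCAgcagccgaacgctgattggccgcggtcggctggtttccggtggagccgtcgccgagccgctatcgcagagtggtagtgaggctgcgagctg

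Its CRE began 49 bases before the start. The core, with or without the full CRE, occurred in 8 of the 19 windows, against 20.8% of all promoter windows. The Gnas windows at chr2:174327499-174327798 and chr2:174327518-174327817 overlap and share a core, as do the Prkar1a windows with the CRE. The 8 windows are therefore not 8 separate sites. They were windows of Gnas, Prkaca, Prkar1a and Pde8a. Of these 4 genes, 0 reached an unadjusted p of 0.05 between the groups in edgeR's test, against 1.99% of all genes. At that share 4 genes are too few to judge, and a match here is a description of letters.

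**Figure D2:**
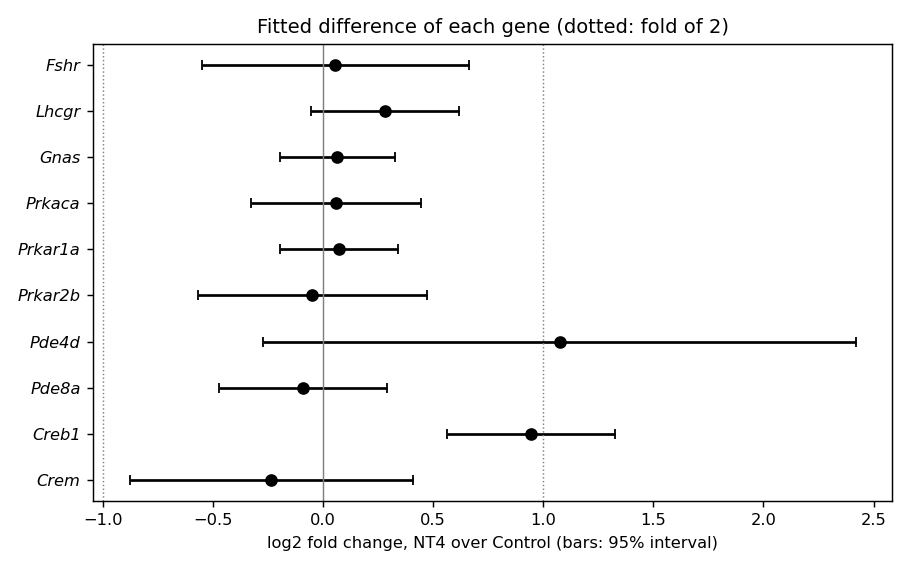
Log2 fold change of NT4 over Control for each of the 10 genes with its 95% interval from edgeR's quasi-likelihood fit. Dotted lines mark a fold of 2 in either direction. Only the Creb1 interval, 0.57 to 1.33, leaves out 0, and the Pde4d interval, −0.27 to 2.42, is the widest.

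The phosphodiesterases differed widely in level. Pde8a (ENSMUSG00000025584, chr7:81213596-81334533, plus strand) encodes a cAMP phosphodiesterase of high affinity. It was at 72.4 and 79.2 CPM in the Control libraries and 63.7 and 78.6 CPM in the NT4 libraries. The groups overlapped, and the log2 fold change was −0.09 (SE 0.15, interval −0.47 to 0.29).

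Pde4d (ENSMUSG00000021699, chr13:108449948-109953461, plus strand) encodes a phosphodiesterase that PKA can activate in feedback. It was the lowest member, at 0.797 and 0.922 CPM in the Control libraries and 1.04 and 2.58 CPM in the NT4 libraries. A single library, NT4 2, stood above the other three. These levels rest on 40, 68, 65 and 199 counts, and 1 read pair added about 4 counts. Its log2 fold change was 1.08 (SE 0.53, interval −0.27 to 2.42, unadjusted p = 0.0964). Without NT4 2 it was 0.28, and without NT4 1 it was 1.58 with an unadjusted p of 0.0163, where NT4 2 alone stood for its group and was assumed to vary like the Control libraries. Among the PDE4 and PDE8 genes, Pde8a made up 91.3% to 95.2% of the level per length of the exon union and Pde4d 0.350% to 1.01%. By mean transcript length the shares were 87.8% to 93.1% and 0.942% to 2.68%.

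The CREB factors were examined last. Creb1 (ENSMUSG00000025958, chr1:64532645-64604548, plus strand) encodes CREB, the factor that binds CRE sites and is phosphorylated by PKA. It was at 25.4 and 25.7 CPM in the Control libraries and 53.4 and 45.2 CPM in the NT4 libraries. The Control libraries were almost equal, and both NT4 libraries were far above them. The NT4 mean was 49.3 ± 5.77 CPM and the Control mean 25.6 ± 0.169 CPM (SD, n = 2), from 1277 to 3484 counts per library. The log2 fold change was 0.95 (SE 0.15, interval 0.57 to 1.33), or 1.93-fold, and the difference was larger than the spread between replicates.

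Its unadjusted p of 0.00119 was number 28 in order among 19259 genes, and the edgeR adjusted p was 0.817. The adjusted p was 8.16e-04 in the DESeq2 Wald test, 0.0165 in edgeR's exact test and 0.726 in limma voom. Across the fits on all 4 libraries the log2 fold change lay between 0.93 and 0.95, and with a library left out between 0.82 and 1.06. No other gene shares exon bases with Creb1 in the annotation. The summed theca and stroma markers were higher in the same libraries, and their part in the Creb1 difference was not tested.

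The Creb1 start region, RefSeq sequence on GRCm38.p6, plus strand, chr1:64532554-64532853, is printed since this was the member with the clearest difference.

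Creb1: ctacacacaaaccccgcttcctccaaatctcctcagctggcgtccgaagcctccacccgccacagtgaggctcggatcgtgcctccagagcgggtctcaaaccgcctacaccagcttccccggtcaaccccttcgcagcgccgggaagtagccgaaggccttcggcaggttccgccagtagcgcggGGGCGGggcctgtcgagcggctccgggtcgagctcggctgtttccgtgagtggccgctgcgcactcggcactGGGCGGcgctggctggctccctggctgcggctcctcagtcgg

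The window held 2 GC boxes and neither the CRE nor its core nor the E-box.

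Crem (ENSMUSG00000063889, chr18:3266048-3337748, minus strand) encodes the cAMP response element modulator, a gene that also gives the repressor ICER. Its level was 7.35 and 10.6 CPM in the Control libraries and 6.90 and 8.41 CPM in the NT4 libraries. The groups overlapped, and the log2 fold change was −0.23 (SE 0.26, interval −0.88 to 0.41). The antisense transcript Gm6225 shares 472 exon bases with Crem and carried 33 to 71 counts against 369 to 784, so part of either count may belong to the other. With both summed, the log2 fold change was −0.25.

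Within the family of CREB, CREM and ATF1, Atf1 made up 83.7% to 89.8% of the level per length of the exon union. Creb1 took 6.12% and 6.59% in Control and 12.2% and 11.4% in NT4, and Crem took 3.66% to 6.36%. The order Atf1, Creb1, Crem held in each library by both lengths.

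The order of the libraries followed their number in most members. In 6 of them, Fshr, Gnas, Prkaca, Prkar2b, Pde8a and Crem, both libraries numbered 2 lay above both numbered 1, and in 0 members both lay below. Over all genes tested, 24.8% were so ordered and 24.3% had the reverse order. Gnas is in this set by a narrow margin. Scaled by library totals alone, its NT4 libraries, at 812.5 and 832.9 CPM, lay above its Control libraries, at 786.2 and 808.8 CPM, which left 5 members in this order (21.8% of all genes with that scaling) and made 5 that did not overlap between groups (26.6% of all genes). The libraries numbered 2 had the higher totals. Of the 12 granulosa markers, 8 were higher and 3 (Amh, Kitl and Amhr2) lower in both of them, and the summed level, to which Inha contributes most, was higher. The labels do not say what the number stands for. The part of these in the order was not tested. Leaving out a library turned the sign of 5 of the 6 members. Without Control 1 the log2 fold change became −0.13 for Fshr and −0.094 for Prkaca, and without NT4 2 it became −0.27 and −0.023. Prkar2b moved to 0.10 without Control 2 and to 0.18 without NT4 1, Pde8a to 0.045 without NT4 1 and Crem to 0.064 without Control 2. Gnas kept its sign, at 0.03 to 0.10.

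**Figure D3:**
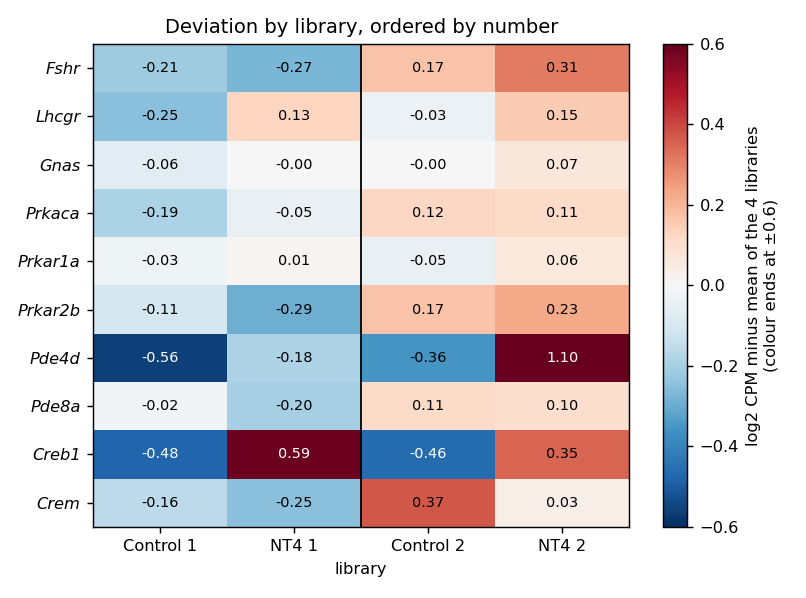
Log2 CPM of each gene in each library minus its mean over the 4 libraries, with libraries ordered by number. Fshr is at −0.21 and −0.27 in the libraries numbered 1 and at 0.17 and 0.31 in those numbered 2, whereas Creb1 is below its mean in both Control libraries and above it in both NT4 libraries.

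Per length of the exon union, the mean levels over the 4 libraries ran from Prkar2b (469.6 ± 67.1, SD, n = 4) through Prkar1a (263 ± 5.43), Gnas (190.1 ± 3.48), Fshr (147 ± 24.8), Prkaca (123 ± 10.8), Pde8a (47.7 ± 4.22), Lhcgr (22.9 ± 2.44), Creb1 (7.12 ± 2.62) and Crem (3.71 ± 0.761) to Pde4d (0.287 ± 0.164). Only Fshr and Prkaca overlapped in their range over libraries among neighbours in this order. By mean transcript length Gnas came first, Prkar1a and Prkar2b overlapped, as did Prkaca and Fshr, and so did Lhcgr and Creb1. The order of the upper members therefore depends on which transcripts are present, which gene counts do not show.

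**Figure D4:**
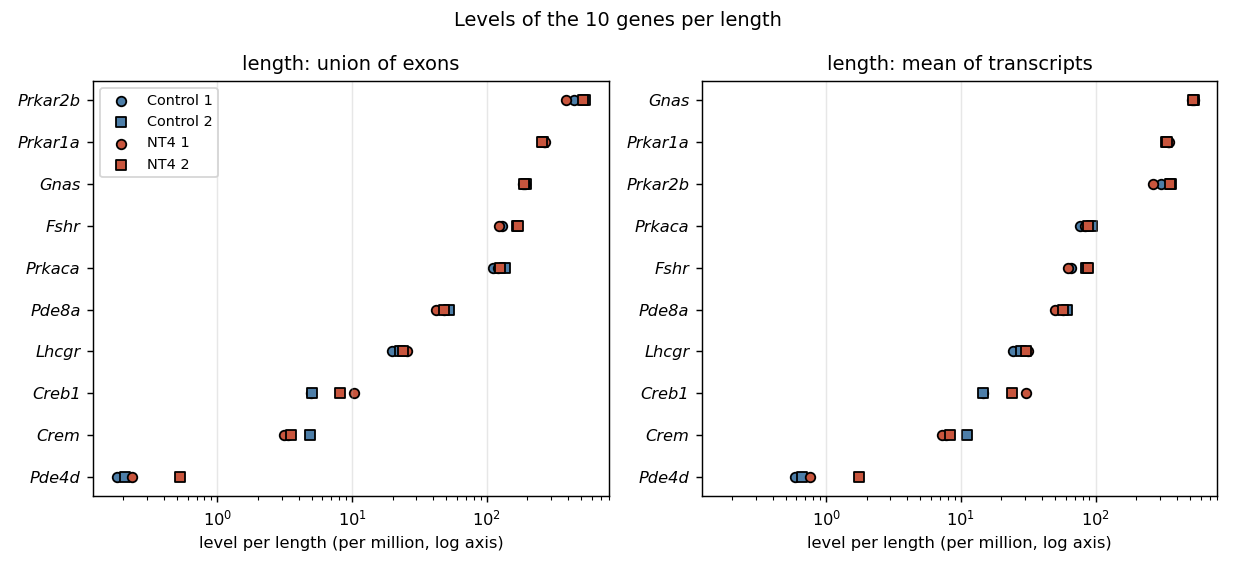
Level of each gene per kilobase, scaled to the same sum in each library, on a log axis, with the union of exons (left) or the mean transcript length (right) as the length. Each point is a library. The PKA regulatory genes and Gnas hold the top 3 places by both lengths and Pde4d the last.

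The library pattern of each receptor was then compared with 14333 tested genes at a mean of at least 1 CPM, as the Euclidean distance between log2 CPM profiles centred on their mean over the 4 libraries. The genes nearest to Fshr were Trp53i11, Uck1 and Hagh, at distances of 0.027, 0.027 and 0.034, and 80 genes lay within 0.1. Uck1, a uridine-cytidine kinase, was at 147.1 and 196.8 CPM in the Control libraries and 143.7 and 213.1 CPM in the NT4 libraries. The genes nearest to Lhcgr were Airn, Aph1c and Cntnap1, at distances of 0.036, 0.038 and 0.043, with 48 genes within 0.1. Over only 4 libraries many genes share a pattern, so these neighbours are a description.

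The rest of the pathway was examined in 98 genes of 11 roles, of which 91 were tested. By edgeR's quasi-likelihood test, 0 had an adjusted p under 0.05, and 1 was higher and 0 lower at an unadjusted p under 0.05, against 1.05% higher and 0.935% lower among all genes. edgeR's exact test called 1 after adjustment, against 0.306% of all genes, while DESeq2 and limma voom called 0. The fitted change was above 0 in 54 and below 0 in 37, with a median log2 fold change of 0.05. Among those tested, both NT4 libraries lay above both Control libraries in 11 genes and below them in 6, against 13.4% and 12.7% of all genes.

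The gene at an unadjusted p under 0.05 was Adcy4, an adenylyl cyclase (unadjusted p = 0.00366 and adjusted p = 0.9999 in edgeR's test), which was also the gene called by the exact test. It passed the filter on low counts only through the NT4 libraries, so its p is given as a description, and it was not tested with a filter at 1 CPM in 2 libraries or with counts divided by 4. It had 0 counts in both Control libraries, 30 in NT4 1 and 41 in NT4 2. A count of 0 allows up to 3 read pairs, or 0.239 CPM in Control 1. The NT4 mean of 0.507 CPM was 2.12 times that floor, and the lower NT4 library was 2.01 times it. These ratios leave out the counting error of the NT4 libraries, so they are not lower limits of the fold. The cyclases with the bulk of the signal overlapped between groups. Adcy9, the cyclase with the highest level per length of the exon union (Adcy6 by mean transcript length), was at 99.3 and 109.5 CPM in the Control libraries and 107.2 and 87.9 CPM in the NT4 libraries, and the 9 tested cyclases had a median log2 fold change of 0.05.

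In the other roles no tested gene reached an unadjusted p of 0.05 in edgeR's test. Within each, the gene with the highest level per length of the exon union is given with its log2 fold change. By mean transcript length Gnai2, Prkar2a and Akap9 led in place of Gnb1, Prkacb and Akap1. Among 9 tested receptors coupled to the same G protein it was Ptger2, a prostaglandin E2 receptor (0.06, SE 0.27). Among 7 receptor kinases and arrestins it was Grk2 (0.04, SE 0.12), among 8 other G protein subunits Gnb1 (−0.04, SE 0.12) and among 3 other PKA subunits Prkacb (0.03, SE 0.12). For 2 tested PKA inhibitors it was Pkig (−0.09, SE 0.16), and for 11 A-kinase anchoring proteins Akap1, which places PKA on mitochondria (−0.13, SE 0.12). Of 13 other phosphodiesterases the leading gene was Pde7a (−0.04, SE 0.15). Of 3 other cAMP effectors or exporters it was Rapgef4, a cAMP-activated exchange factor (−0.04, SE 0.25). Of 9 CREB partners and regulators it was Atf1 (−0.02, SE 0.13).

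The FSH and cAMP response genes are transcripts that FSH or cAMP is known to raise in GCs. All 17 were tested, 12 fitted higher and 5 lower. Their median log2 fold change was 0.23, against 0.0045 over all genes tested. In edgeR's test 0 reached an unadjusted p of 0.05, against 1.99% of all genes, a share at which 17 genes are too few to judge. Inha, the inhibin alpha subunit and the highest of them, was at 6626 and 7978 CPM in the Control libraries and 5821 and 8870 CPM in the NT4 libraries, in the order seen for Fshr. The following genes were chosen after their values were seen. Cyp19a1, the aromatase, was at 39.8 and 65.5 CPM in the Control libraries and 36.6 and 87.0 CPM in the NT4 libraries, again in that order. Cyp11a1, which starts steroid synthesis from cholesterol, was at 127.6 and 244.5 CPM in Control and 198.7 and 323 CPM in NT4. It was higher in NT4 within each number. The theca markers Cyp17a1 and Insl3 were likewise higher in NT4 within each number, and the summed theca and stroma markers were higher in both NT4 libraries. The part of theca and stroma RNA in the Cyp11a1 difference and in the median of the 17 genes was not tested. The log2 fold change of Cyp11a1 was 0.49 (SE 0.37, unadjusted p = 0.244 in edgeR's test), and the groups overlapped, as Control 2 lay above NT4 1. Without Control 2, the higher Control library, the log2 fold change was 1.04, where Control 1 alone stood for its group. With Control 1 left out instead, the remaining Control library, at 244.5 CPM, lay between the NT4 libraries. With NT4 2 left out, the remaining NT4 library, at 198.7 CPM, lay between the Control libraries. The immediate early genes Fos, Egr1, Junb and Dusp1 were highest in NT4 2, at 1215, 1197, 268 and 75.9 CPM, while their NT4 1 levels of 658, 689, 185 and 40.8 CPM lay within the range of the Control libraries. Nr4a1, another immediate early gene of the list, did not share this pattern, at 379.5 and 230.8 CPM in Control and 388.4 and 362.1 CPM in NT4.

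**Figure D5:**
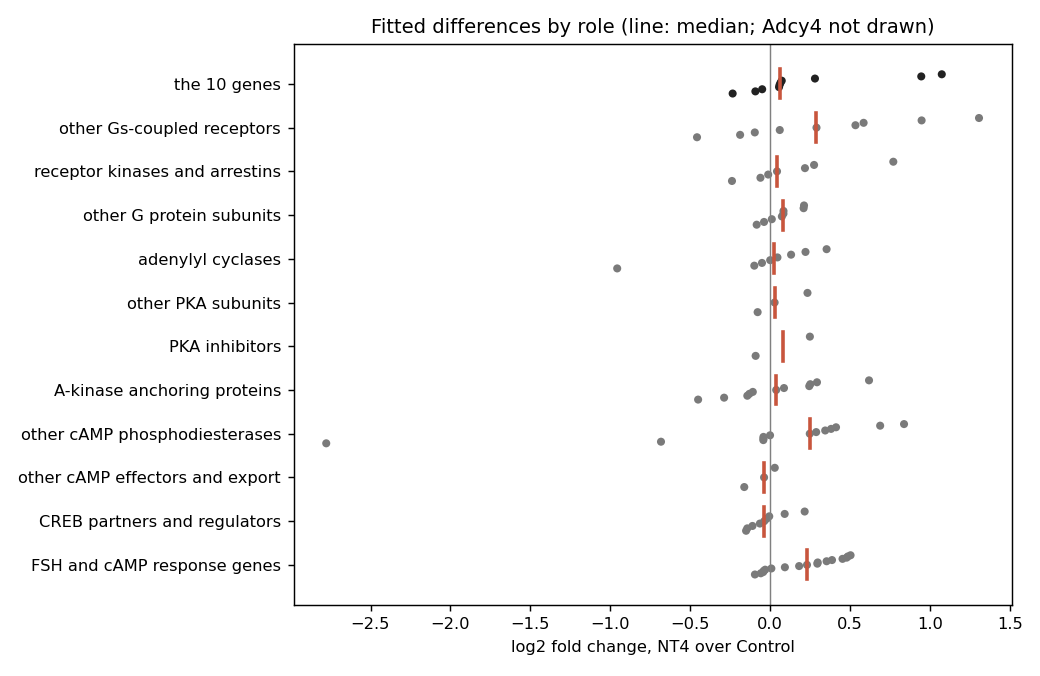
Log2 fold change of NT4 over Control for the 10 genes and for the other tested pathway genes by role. Points are genes and vertical lines are medians. Adcy4, at 0 in Control, is not drawn. The 17 FSH and cAMP response genes lie between −0.09 and 0.50.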

How the data were processed

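Each deposited file gives expected counts, as a whole number for each gene. Per the methods, reads with adaptors or bases of low quality were removed with Cutadapt. The rest were mapped with HISAT2 to GRCm38 (mm10 in the submitters' processing notes, which also name FastQC and edgeR). They were assembled with StringTie, and expression was estimated by StringTie and ballgown. Neither the step to whole counts nor the use of strand in counting is given in the sources used here. The second strand was marked with dUTP. The table and the single-library files held identical counts in 4 of 4 libraries. Of counts from 1 to 12, 45.4% to 46.2% sat at 4, 8 or 12, so a read pair adds about 4 counts and the libraries hold an estimated 12380023 to 19676005 read pairs. A count of 0 allows 3 read pairs, or 0.152 to 0.242 CPM of the library total, which covers counting error only.

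Identifiers were matched to symbols, coordinates and exon overlaps in GENCODE annotation of GRCm38 (55144 of 55385). All 4 libraries were fitted with the group alone in edgeR 4.0.16 (R 4.3.3) by the quasi-likelihood test, with TMM factors, edgeR's filter for low counts (filterByExpr) and p-values adjusted over 19259 genes by Benjamini-Hochberg. Tests were two-sided. The SE is the log2 fold change over the root of the F statistic. Log2 CPM used a prior count of 2. The script was tested on simulated data. Alternatives were other scaling factors, other filters, DESeq2 1.42.0, edgeR's exact test, voom in limma 3.58.1, a replicate block, each library left out, counts divided by 4, overlapping genes summed and another gene length.

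Genes named were the 10 members, in each other role the gene with the highest level per length of the exon union and any gene at an unadjusted p under 0.05, and the 3 nearest profiles of each receptor. Fos, Egr1, Junb, Dusp1, Nr4a1, Cyp19a1, Cyp11a1 and the genes that led a role by mean transcript length were added after their values were seen, and marker genes are named from their lists. Promoter windows came from RefSeq (GRCm38.p6), with 19 for 9 members and none for Crem. The members, the other pathway genes and the marker lists were chosen with earlier results of these data known.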

Additional observations from a re-analysis of the deposited data

How the results depend on the processing

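Of 142 refits of the 10 members' log2 fold changes, 132 kept direction and side of the adjusted threshold, 2 moved Creb1 past it (DESeq2 and edgeR's exact test) and 8 reversed. All reversals came from leaving out a library: Fshr then ranged from −0.27 to 0.31, Prkaca from −0.094 to 0.23, Prkar2b from −0.33 to 0.18, Pde8a from −0.25 to 0.045 and Crem from −0.48 to 0.064. The median over members ranged from −0.032 without Control 1 to 0.17 without Control 2. Members called at an adjusted p were 1 by the Wald test of DESeq2 (0.313% of genes with an adjusted p) and 1 by the exact test of edgeR (0.306%), against 0 in edgeR's quasi-likelihood test, and other pathway genes called were 1 in the exact test. Members at an unadjusted p under 0.05 were 1 to 2 when any library was dropped (Creb1, with Pde4d added without NT4 1), in fits where 2.71% to 4.24% of all genes passed against 1.99%. Members meeting the criterion of the methods ranged from 0 to 1, being 1 without NT4 1 (Pde4d) and 1 without NT4 2 (Creb1), in fits where 1.68% and 1.93% of all genes met it, against 1.08% with all libraries. A library left alone in its group was assumed to vary like the other group. Members not overlapping, 4 with TMM, were 5 with library totals and 5 with upper-quartile factors, where 26.6% and 26.0% of all genes did not overlap. That count was 6 to 8 with a library left out (7 without Control 1 or NT4 1, 6 without Control 2, 8 without NT4 2), where 56.3% to 69.4% of all genes did not overlap, since fewer libraries leave less room to. Other pathway genes at an unadjusted p under 0.05, 1 in the fit reported, were 2 without a filter (1.97% of all genes), 0 with a filter at 1 CPM in 2 libraries (1.8%), 2 in DESeq2 (1.94%), 0 with counts divided by 4 (1.88%), 3 with the replicate block (3.01%; Adcy4, Akap2 and Cyp11a1, the last at an unadjusted p of 0.00695 and an edgeR adjusted p of 1), and 3 to 9 with a library left out (3 without Control 1 or NT4 2, where 2.71% and 3.63% of all genes passed, 5 without Control 2, where 3.23% did, and 9 without NT4 1, where 4.24% did). The second gene without a filter and in DESeq2 was Pde2a, at 1.375 CPM in NT4 2 and at most 0.0407 CPM in the other libraries. It shares 3955 exon bases on the same strand with Gm45837. That gene had 39 counts in NT4 2 and 99 to 153 in the others, so the level of Pde2a is uncertain. The cause of these changes between settings was not tested.

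The group labels share replicate numbers, but do not tie a number to an experiment, animal or day, and the study says that groups were cultured in parallel and that the libraries of a group stem from separate experiments. Deviations of the libraries numbered alike correlated at Pearson's 0.140 and Spearman's 0.260 over 19259 genes, with values of 0.306 and 0.439 among 10491 more abundant genes (mean log2 CPM over 3). Genes share these libraries and are not independent. With the replicate block, 2 members were at an unadjusted p under 0.05, Creb1 (log2 fold change 0.94, edgeR adjusted p = 0.606) and Lhcgr (0.29, unadjusted p = 0.0449), against 3.01% of all genes. The number itself had an unadjusted p under 0.05 for 2 members, Fshr and Prkar2b, against 11.7% of all genes. The other filters on low counts were not run for the count of members not overlapping. Per-length levels by mean transcript length differed from those by exon union, as given above. Depth limits the genes near the floor, such as Adcy4, Adcy8 and Pde1c, and Pde4d among the members.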
